A study of Mus musculus with 6 samples.

Results

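The genes described here are 40 mouse genes of the response to amino acid shortage and of the unfolded protein response. They were chosen by symbol, and 40 of 40 matched an Ensembl row of the table of 52325 genes. Of them 26 belong to the amino acid arm, which is driven by the transcription factor Atf4, and 14 serve folding or degradation in the endoplasmic reticulum (ER). RNA sequencing compared Elf5-positive cells (2 libraries) with Elf5-negative cells (4 libraries) of C3-T; Elf5-GFP breast tumours from C57BL/6 mice, where green fluorescent protein (GFP) reports Elf5, an ETS-family factor of mammary luminal cells. After digestion, cells were separated by CD45, CD31 and TER119 staining to enrich tumour cells, and those by GFP. Strain, tumour background and reporter were the same in both groups, and no ages of the mice are stated. Whether each library came from its own animal is not stated either, and p-values then describe the spread among these 6 libraries alone. Titles carry 1 of 2 numbers and 1 of 2 codes, which the labels do not define. Elf5-positive 1 and Elf5-negative 1 and 2 carry the same number and are called title set A here, and Elf5-positive 2 and Elf5-negative 3 and 4 carry the other and are called title set B. The code is T1 for Elf5-negative 1 and 3 and T2 for the other 4.

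When amino acids run short or misfolded protein builds up in the ER, kinases phosphorylate the translation factor eIF2, which lowers general protein synthesis and raises translation of Atf4. Atf4 then switches on genes for amino acid synthesis, uptake and feedback. Independently, the ER sensors Ire1 and Atf6 raise chaperones and degradation factors, Ire1 by splicing the Xbp1 messenger. Secretory cells, such as mammary alveolar cells and matrix-producing fibroblasts, rely on this ER machinery. The counts are per gene, so they show neither Atf4 translation nor Xbp1 splicing.

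Library totals ran from 9106660 counts (Elf5-negative 4) to 53694884, and the smallest count of any of the 40 genes in any library was 58. Values are in CPM, a gene's counts relative to its library's total, scaled by the trimmed mean of M-values (TMM). Elf5, which checks the labels, stood at 77.7 and 137 CPM in Elf5-positive libraries 1 and 2, against 10.7, 6.93, 10.5 and 24.7 CPM in Elf5-negative libraries 1 to 4. The groups differed widely in other cell types. With TMM scaling, fibroblast markers fell for 13 of 14 genes and summed to 1169 to 1422 CPM in Elf5-positive libraries, against 18503 to 53597 CPM in Elf5-negative libraries. Epithelial markers rose for 11 of 18 and summed to 6450.1 to 9445 CPM in Elf5-positive libraries, against 2373 to 4042 CPM in Elf5-negative libraries. Of the pericyte and smooth muscle markers 5 of 9 fell, of the endothelial ones 3 of 12, and none of 14 leukocyte, 8 skeletal muscle or 14 dissociation genes passed. Of 10 B and plasma cell markers, 8 were tested and none passed, and they summed to 6.5 to 14.4 CPM in Elf5-positive libraries, against 2.22 to 20.7 CPM in Elf5-negative libraries. In bulk samples, fewer cells of a type and less RNA per cell cannot be told apart.

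None of the 40 genes passed between the sorts, and 0 were called higher or lower (adjusted p below 0.05 by Benjamini-Hochberg over 20684 genes, quasi-likelihood test of edgeR), where 4.37% of all genes tested were called, 0.585% higher and 3.79% lower. All 40 passed the filter on low counts, and the smallest adjusted p was 0.103, of Slc1a4. At an unadjusted p under 0.05, 0 were higher and 5 lower. The background for these counts was 5.2% higher and 11.7% lower, so the 5 are a share near it. DESeq2 called 0 higher and 3 lower (Slc1a4, Pycr1 and Sel1l), where it called 436 of the 20684 genes higher and 1763 lower. Both Elf5-positive libraries lay above all 4 Elf5-negative ones for 1 of the 40 genes (Gpt2) and below them for 10 (4 amino acid and 6 ER genes), where 10.9% of all genes tested lay above and 14.8% below. Standard errors of the log2 fold changes ran from 0.20 to 0.78, and for 16 of the 40 genes the 95% interval lay within -1 and 1, so that a change of more than 2-fold lay outside the interval only for these.

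**Figure D1:**
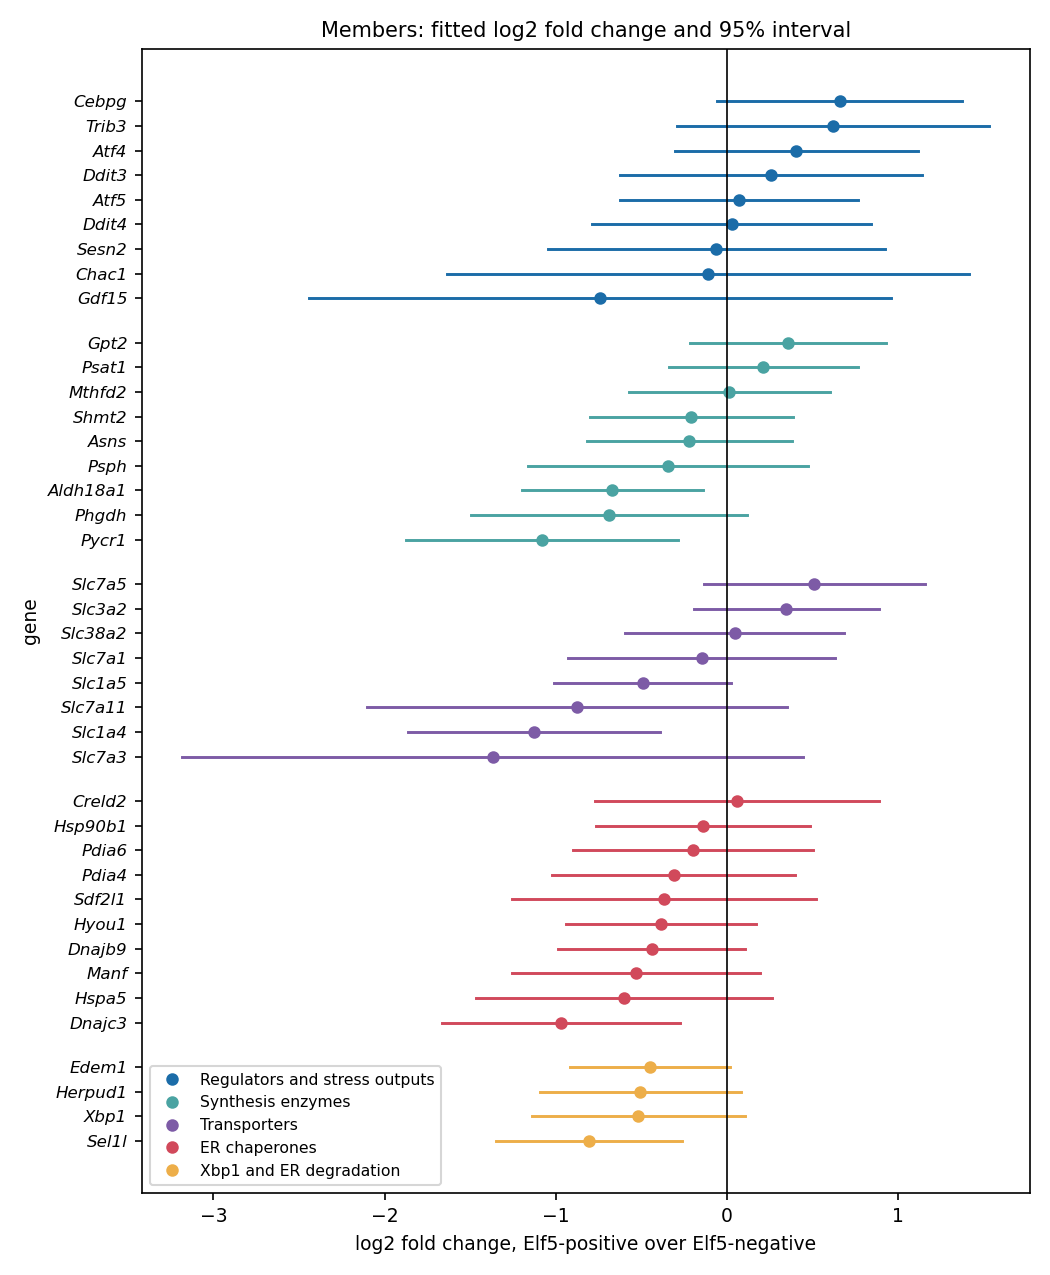
Fitted log2 fold change (x axis, Elf5-positive over Elf5-negative, n = 2 and 4 libraries) of the 40 genes, with 95% intervals as bars and colours for roles. Of the 14 ER genes 13 lie below 0 with TMM scaling and 14 with scaling to epithelial genes, the amino acid genes lie on both sides (all below 0 with scaling to epithelial genes), and 5 intervals exclude 0.

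The fold changes of the arms lay differently around 0, which is given as a description. With TMM scaling, 12 of the 26 amino acid genes lay above 0 and 14 below, with a median log2 fold change of -0.08. Of the 14 ER genes 1 lay above 0 and 13 below, with a median of -0.44, while the median over all genes tested was 0.05 and 46.7% of them lay below 0. Scaling libraries to the 18 epithelial marker genes, in place of all genes, moved the median of all genes to -1.31, all 40 genes then lay below 0, and the medians were -1.5 (amino acid) and -1.82 (ER). Relative to the median of all genes, the amino acid genes were at -0.13 with TMM and -0.19 with epithelial scaling, and the ER genes at -0.49 and -0.51.

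Promoters of some of these genes carry elements for which the arms are known, and a few are printed to show which element stands near the start of genes of each arm. RefSeq promoters (GRCm38.p6, 250 bases before to 50 after the start) were found for 35 of the 40 genes, 23 amino acid and 12 ER genes. Searched on both strands were TGATGNAA (the C/EBP-Atf response element, CARE), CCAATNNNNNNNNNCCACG (the ER stress response element, ERSE), ERSE-II (ATTGG, any base, CCACG) and TGACGTGG (the unfolded protein response element, UPRE). ERSE and ERSE-II share CCACG and, on opposite strands, CCAAT, and no 2 of the motifs contain each other. CARE stood in 6 of 23 amino acid genes (Asns, Chac1, Trib3, Pycr1, Slc7a11 and Slc1a4), in 1 of 12 ER genes (Herpud1) and in 4.51% of all 27025 genes with a promoter. ERSE stood in 0 of 23 amino acid genes, 5 of 12 ER genes (Hspa5, Hsp90b1, Dnajc3, Pdia6 and Creld2) and 0.137% of all genes. ERSE-II stood in Herpud1 alone among these genes and in 0.0444% of all genes, and UPRE in none of the 35 and in 0.714% of all genes. The sequences below run 5′ to 3′ in the direction of the gene with 40 bases on each side of the match, and capitals mark the match, which for Chac1 and Slc1a4 is the reverse complement of CARE.
Chac1 (CARE, GRCm38.p6 chr2:119351009-119351096, + strand): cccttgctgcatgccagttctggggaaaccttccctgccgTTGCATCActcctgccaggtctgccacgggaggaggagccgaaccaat
Asns (CARE, GRCm38.p6 chr6:7693185-7693272, - strand): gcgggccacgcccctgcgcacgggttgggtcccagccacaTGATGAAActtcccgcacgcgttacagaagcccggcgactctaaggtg
Slc1a4 (CARE, GRCm38.p6 chr11:20332670-20332757, - strand): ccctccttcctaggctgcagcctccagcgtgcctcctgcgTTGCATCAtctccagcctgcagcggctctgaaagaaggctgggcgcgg
Hspa5 (ERSE, GRCm38.p6 chr2:34771985-34772083, + strand): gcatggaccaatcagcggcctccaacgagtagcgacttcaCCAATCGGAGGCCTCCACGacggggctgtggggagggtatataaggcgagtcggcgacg
Dnajc3 (ERSE, GRCm38.p6 chr14:118937787-118937885, + strand): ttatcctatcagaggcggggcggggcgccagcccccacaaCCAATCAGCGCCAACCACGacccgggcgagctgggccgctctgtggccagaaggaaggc
Herpud1 (ERSE-II, GRCm38.p6 chr8:94386337-94386427, + strand): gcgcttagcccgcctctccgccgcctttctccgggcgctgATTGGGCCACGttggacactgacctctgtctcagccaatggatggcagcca
The match ends 185 bases before the annotated start in Chac1, 15 in Asns, 46 in Hspa5, 86 in Dnajc3 and 41 in Herpud1, and spans the start in Slc1a4. A match is a description of the letters, and binding was not measured.

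Among the regulators and stress outputs of the amino acid arm, 6 of 9 lay above 0 and none passed. Atf4, the central factor (chromosome 15), stood at 701 and 481 CPM in Elf5-positive libraries 1 and 2, against 481, 558, 429.5 and 314 CPM in Elf5-negative libraries 1 to 4. Elf5-positive library 1 was the highest of the 6, but Elf5-positive library 2 lay among the Elf5-negative libraries. The log2 fold change was 0.41 (SE 0.31, edgeR adjusted p = 0.600), with a 95% interval of -0.30 to 1.12. Per kilobase of exon, Atf4 was at 251 CPM in Elf5-positive and 189 CPM in Elf5-negative libraries, the highest of the 26 amino acid genes in both groups. Cebpg, a dimer partner of Atf4, had the largest positive log2 fold change of the 40, 0.66 (SE 0.31, adjusted p = 0.343). Its groups overlapped, because Elf5-negative library 4 at 153 CPM lay above Elf5-positive library 1 at 135 CPM, and the log2 fold change was 0.26 without Elf5-positive library 2. Atf5, a related factor that Atf4 induces, was at 0.07 (SE 0.30).

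Ddit3 encodes CHOP, the factor that links prolonged stress to cell death, and stood at 75.3 and 42.6 CPM in Elf5-positive libraries 1 and 2, against 76.9, 41.5, 32.6 and 45.9 CPM in Elf5-negative libraries 1 to 4. A library of each sort (Elf5-positive 1 and Elf5-negative 1) was high and the other 4 were lower, so the groups overlapped (log2 fold change 0.26, SE 0.38). Trib3, a pseudokinase that restrains Atf4, stood at 74.4 and 29.0 CPM in Elf5-positive libraries 1 and 2, against 38.7, 40.3, 22.3 and 33.0 CPM in Elf5-negative libraries 1 to 4. Elf5-positive library 1 alone was high, and Elf5-positive library 2 lay below 3 of the Elf5-negative libraries. The fitted change was 0.62 on the log2 scale (SE 0.40, adjusted p = 0.515), and -0.21 without Elf5-positive library 1.

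Chac1, which degrades glutathione and is among the genes most closely tied to Atf4, stood at 19.3 and 5.07 CPM in Elf5-positive libraries 1 and 2, against 17.9, 20.5, 7.87 and 5.96 CPM in Elf5-negative libraries 1 to 4. The spread within each sort was wider than the difference between them, with a 3.80-fold range in the Elf5-positive and a 3.44-fold range in the Elf5-negative libraries. The log2 fold change was -0.11 (SE 0.66). Gdf15, a secreted stress hormone, stood at 42.8 and 7.59 CPM in Elf5-positive libraries 1 and 2, against 66.4, 56.6, 19.1 and 25.9 CPM in Elf5-negative libraries 1 to 4. It had the lowest log2 fold change of the regulators, -0.74 (SE 0.74), but Elf5-positive library 1 lay inside the Elf5-negative range. Sesn2 and Ddit4, inhibitors of the growth kinase complex mTORC1, were at -0.06 (SE 0.43) and 0.03 (SE 0.35).

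**Figure D2:**
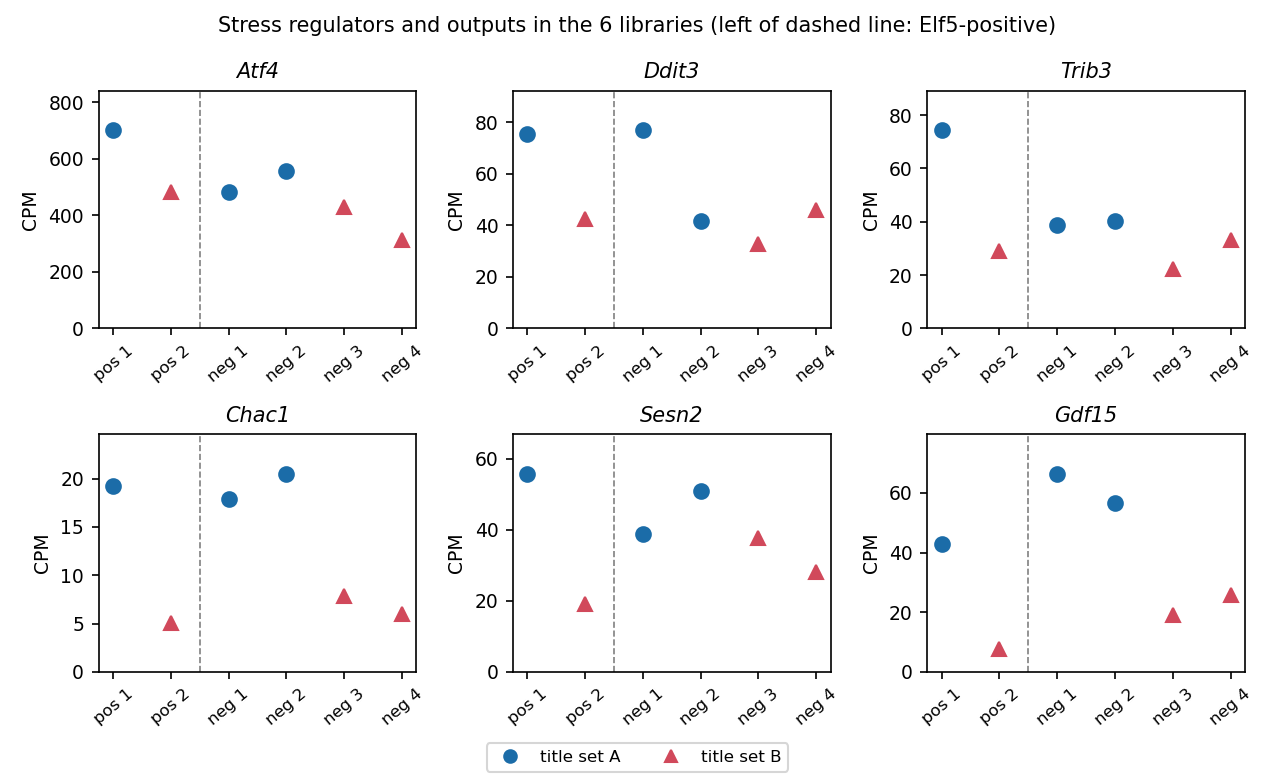
CPM (TMM-scaled, linear axes from 0) of 6 regulators and outputs in each of the 6 libraries, with blue circles for title set A and red triangles for title set B. The sorts overlap in each of the 6 panels, while in Atf4, Trib3, Chac1, Sesn2 and Gdf15 the 3 circles lie above the 3 triangles, in Atf4 by 481.1 against 480.7 CPM at the closest. Of the regulators not drawn, Atf5 separates in the same way, and Ddit4 and Cebpg overlap between the title sets. Of all genes tested, 8.83% separate with set A higher.

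The synthesis enzymes lay mostly at or below 0, with 3 of 9 above and 6 below. Pycr1 and Aldh18a1, which make proline from glutamate, were the ones with Elf5-positive below Elf5-negative libraries without overlap. Pycr1 stood at 9.97 and 5.67 CPM in Elf5-positive libraries 1 and 2, against 17.7, 17.1, 18.3 and 12.9 CPM in Elf5-negative libraries 1 to 4. Both Elf5-positive libraries lay below all Elf5-negative ones (log2 fold change -1.08, SE 0.34, edgeR adjusted p = 0.144), and DESeq2 gave an adjusted p of 0.0344. Aldh18a1, the enzyme of the preceding step, stood at 62.7 and 46.4 CPM in Elf5-positive libraries 1 and 2, against 80.8, 99.7, 85.2 and 80.9 CPM in Elf5-negative libraries 1 to 4. Here too the groups did not overlap (log2 fold change -0.67, SE 0.23, adjusted p = 0.173), and with the title number as a block in the T2 libraries the adjusted p was 0.0357.

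In the serine pathway the 3 enzymes did not share a direction, and none passed with TMM scaling of all 6 libraries. Phgdh, the entry step, stood at 72.8 and 96.4 CPM in Elf5-positive libraries 1 and 2, against 130.2, 165, 77.9 and 172 CPM in Elf5-negative libraries 1 to 4. Elf5-negative library 3 lay between the Elf5-positive libraries and the other 3 Elf5-negative ones were higher (log2 fold change -0.69, SE 0.35, adjusted p = 0.389). In the T2 libraries with the title number as a block, its edgeR adjusted p was 0.0241. Psat1, the next step, stood at 90.0 and 104 CPM in Elf5-positive libraries 1 and 2, against 79.0, 103, 65.4 and 86.8 CPM in Elf5-negative libraries 1 to 4. Its groups overlapped and its log2 fold change was 0.22 (SE 0.24), with a 95% interval of -0.34 to 0.77. Psph, the last step, was at -0.34 (SE 0.35).

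Mthfd2, of mitochondrial folate metabolism, stood at 77.0 and 87.1 CPM in Elf5-positive libraries 1 and 2, against 82.2, 76.5, 61.2 and 105 CPM in Elf5-negative libraries 1 to 4. Its log2 fold change was 0.02, with a 95% interval of -0.57 to 0.61, so a change of more than 2-fold lay outside the interval. Shmt2, which feeds the same folate pathway from serine, was at -0.21 (SE 0.26). Asns, the asparagine synthetase whose promoter match is printed above, stood at 69.0 and 45.3 CPM in Elf5-positive libraries 1 and 2, against 66.0, 81.7, 56.9 and 61.4 CPM in Elf5-negative libraries 1 to 4. Elf5-positive library 2 was the lowest of the 6 and Elf5-positive library 1 lay inside the Elf5-negative range (log2 fold change -0.22, 95% interval -0.82 to 0.38). Gpt2, an alanine transaminase, was the gene of the 40 with both Elf5-positive libraries above all Elf5-negative ones. Its log2 fold change was 0.36 (SE 0.25, adjusted p = 0.561), and the closest libraries were Elf5-positive 2 at 62.0 CPM and Elf5-negative 4 at 60.1 CPM.

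The transporters lay on both sides of 0, with 3 of 8 above and 5 below. Slc7a5 and Slc3a2 encode the light and heavy chains of the exchanger of large neutral amino acids. Slc7a5 stood at 268 and 217 CPM in Elf5-positive libraries 1 and 2, against 179, 219, 119 and 163 CPM in Elf5-negative libraries 1 to 4. Elf5-positive library 1 was the highest, and Elf5-positive library 2 lay just under Elf5-negative library 2 (log2 fold change 0.51, SE 0.28, adjusted p = 0.429). Slc3a2, which also partners Slc7a11, stood at 341 and 245 CPM in Elf5-positive libraries 1 and 2, against 246, 240.2, 228 and 208 CPM in Elf5-negative libraries 1 to 4. The Elf5-positive libraries were the highest and the third of the 6, and the log2 fold change was 0.35 (SE 0.23). Both genes lay below 0, at -0.90 and -1.06, with scaling to epithelial genes, but above the median of all genes in that setting, -1.31.

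Slc1a4, a carrier of serine and other small neutral amino acids, had the smallest p of the 40 genes and stood at 18.5 and 9.62 CPM in Elf5-positive libraries 1 and 2, against 32.5, 34.1, 28.8 and 27.0 CPM in Elf5-negative libraries 1 to 4. Both Elf5-positive libraries lay below all 4 Elf5-negative ones, which spanned only a 1.26-fold range. Its log2 fold change was -1.12 (SE 0.32, edgeR adjusted p = 0.103). The adjusted p was 0.0218 with DESeq2, 0.0420 with the title number as a block, 0.0407 with the block in the T2 libraries and 0.0466 without Elf5-positive library 1, a fit that leaves 1 Elf5-positive library and takes the spread from the Elf5-negative ones. It was 0.0027 with epithelial scaling, and 0.0638 to 0.533 in the other settings. Slc1a5, the glutamine carrier of the same family, was lower without overlap too, at -0.49 (SE 0.22, adjusted p = 0.325).

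Slc7a11, the cystine and glutamate exchanger, stood at 6.41 and 12.0 CPM in Elf5-positive libraries 1 and 2, against 24.6, 8.89, 10.5 and 23.9 CPM in Elf5-negative libraries 1 to 4. Elf5-negative libraries 1 and 4 were high and the other 2 lay within the Elf5-positive range (log2 fold change -0.88, SE 0.53). Slc7a3, a carrier of cationic amino acids, had the same 2 high libraries, with 5.62 and 5.88 CPM in Elf5-positive libraries 1 and 2, against 23.9, 6.65, 3.72 and 25.4 CPM in Elf5-negative libraries 1 to 4. Its log2 fold change of -1.37 was the lowest of the 40 and had the largest standard error, 0.78. Slc7a1, the widespread cationic carrier, and Slc38a2, a sodium-coupled carrier of neutral amino acids, were at -0.15 (SE 0.34) and 0.05 (SE 0.28).

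In the ER arm, 6 of 14 genes had both Elf5-positive libraries below all Elf5-negative ones, where 14.8% of all genes tested did so. None of the 14 passed. Hspa5 (BiP), the main ER chaperone, stood at 1352 and 1014 CPM in Elf5-positive libraries 1 and 2, against 2419.9, 1930.2, 1719 and 1104 CPM in Elf5-negative libraries 1 to 4. The Elf5-positive libraries were the third lowest and the lowest of the 6, and Elf5-negative library 4 lay between them. Its log2 fold change was -0.60 (SE 0.37, adjusted p = 0.504), with a 95% interval of -1.46 to 0.26. Hsp90b1 (Grp94), a chaperone of secreted and membrane proteins, stood at 945 and 1203 CPM in Elf5-positive libraries 1 and 2, against 1278, 1288, 1155 and 1001 CPM in Elf5-negative libraries 1 to 4. Its groups overlapped and the log2 fold change was -0.14. Per kilobase of exon, Hspa5 and Hsp90b1 were the most abundant of the 40 genes in both sorts, at 279.8 and 266 CPM in Elf5-positive, against 424 and 293 CPM in Elf5-negative libraries. In the annotation, exons of other gene entries cover 15.7% of the Hsp90b1 exons, 10.9% of those of Ddit3, 10.4% of Psph and 9.25% of Manf, so their reads may be shared. The entries that overlap Ddit3 include another one named Ddit3, whose counts are not given here.

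Among the BiP cofactors, Dnajc3 was the lowest, with 46.9 and 74.9 CPM in Elf5-positive libraries 1 and 2, against 126, 108, 151 and 92.2 CPM in Elf5-negative libraries 1 to 4. The groups did not overlap (log2 fold change -0.97, SE 0.30, edgeR adjusted p = 0.132), and across the 17 settings other than epithelial scaling its adjusted p ran from 0.0563 to 0.643. Dnajb9, another DnaJ partner of BiP, stood at 40.6 and 34.3 CPM in Elf5-positive libraries 1 and 2, against 61.6, 48.1, 51.5 and 41.9 CPM in Elf5-negative libraries 1 to 4. Both Elf5-positive libraries were lower, by a small margin (log2 fold change -0.44, SE 0.24). Hyou1, which exchanges nucleotide on BiP, was at -0.39 (SE 0.24) without overlap. The disulfide isomerases Pdia4 and Pdia6 were at -0.31 and -0.20, and the small ER proteins Manf, Sdf2l1 and Creld2 at -0.53, -0.37 and 0.06, all 5 with overlapping groups. Creld2 was the only ER gene above 0, and lay at -1.35 with scaling to epithelial genes, where the median of all genes was -1.31.

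The 4 genes of ER control all lay below 0. Xbp1, the factor spliced by Ire1, stood at 107 and 91.9 CPM in Elf5-positive libraries 1 and 2, against 185, 135, 141 and 107 CPM in Elf5-negative libraries 1 to 4. Elf5-positive library 1 and Elf5-negative library 4 were almost level (log2 fold change -0.52, SE 0.27, adjusted p = 0.404). Herpud1, an adaptor of the degradation complex whose promoter holds both CARE and ERSE-II, stood at 59.7 and 59.5 CPM in Elf5-positive libraries 1 and 2, against 111, 85.6, 68.9 and 73.2 CPM in Elf5-negative libraries 1 to 4. The Elf5-positive libraries were lower without overlap (log2 fold change -0.51, SE 0.25). Sel1l, the scaffold of the Hrd1 ubiquitin ligase, stood at 44.6 and 51.0 CPM in Elf5-positive libraries 1 and 2, against 82.2, 84.2, 100.1 and 67.2 CPM in Elf5-negative libraries 1 to 4. It had the clearest separation in this arm (log2 fold change -0.80, SE 0.24, edgeR adjusted p = 0.112, and 0.0483 with DESeq2). Edem1, a lectin that hands glycoproteins to degradation, was at -0.45 (SE 0.20), also without overlap.

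**Figure D3:**
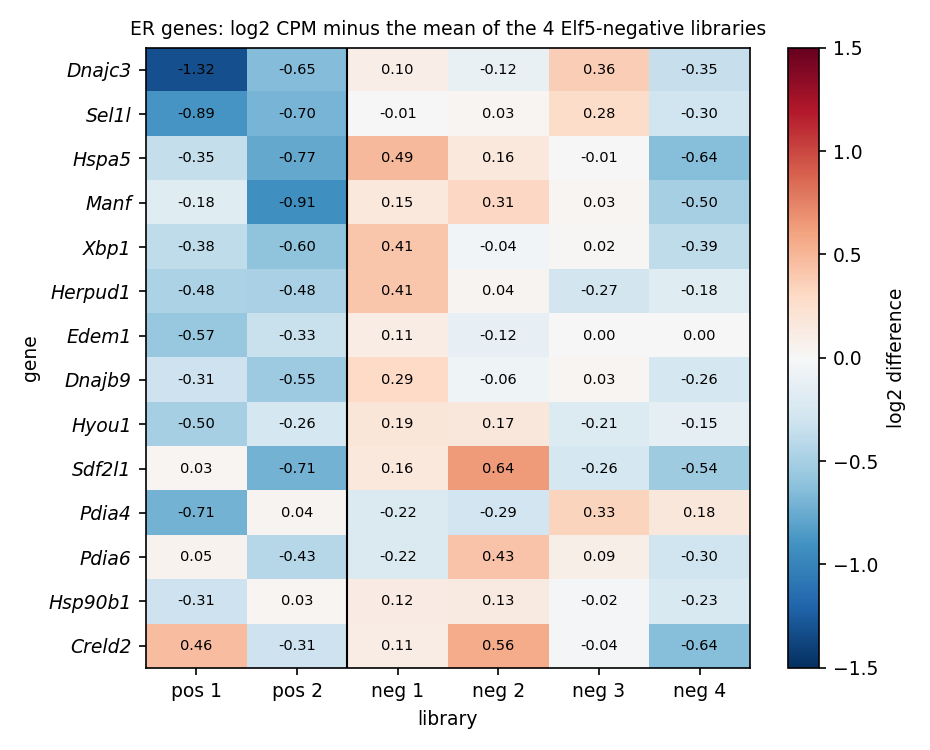
Log2 CPM of the 14 ER genes (rows, ordered by log2 fold change) in each of the 6 libraries (columns, Elf5-positive left of the line), as the difference from the mean of the 4 Elf5-negative libraries. Blue cells prevail in both Elf5-positive columns and in Elf5-negative 4, and Dnajc3 in Elf5-positive 1 is the lowest cell at -1.32.

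Between the sorts, the lower ER level ran beside the fibroblast markers and beside the pericyte and smooth muscle markers, which summed to 137 to 186 CPM in Elf5-positive libraries, against 581 to 1444 CPM in Elf5-negative libraries. Within the Elf5-negative libraries 1 to 4, mean log2 CPM over the 14 ER genes was 7.46, 7.44, 7.33 and 7.0. Summed fibroblast markers were 26093, 18503, 53597 and 19848 CPM there, and pericyte markers 1444, 1055, 1227 and 581 CPM. Endothelial markers, at 220.5, 159, 153 and 88.9 CPM, had the same order as the ER level, as did the leukocyte and dissociation sums given further on. Over all 6 libraries this order did not hold. In Elf5-positive libraries 1 and 2, endothelial markers summed to 89.9 and 41.4 CPM, leukocyte markers to 204 and 82.5 CPM. Dissociation genes summed to 22233 and 13810 CPM there, while the ER level, 6.92 and 6.83, lay below all 4 Elf5-negative libraries. The part of these cell types in the ER level was not tested.

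Set against each other library by library, the arms separated the sorts little. Mean log2 CPM of the amino acid genes was 6.09 and 5.65 in Elf5-positive libraries 1 and 2, against 6.19, 6.19, 5.72 and 6.11 in Elf5-negative libraries 1 to 4, with overlap. That of the ER genes was 6.92 and 6.83 in Elf5-positive libraries, below the lowest Elf5-negative library at 7.0. The difference, amino acid minus ER, was -1.0 ± 0.25 in Elf5-positive libraries (SD, n = 2) and -1.25 ± 0.29 in Elf5-negative libraries (SD, n = 4). The gap of 0.25 between these means is smaller than the spread among the Elf5-negative libraries, where library 4 at -0.89 lay between the Elf5-positive ones at -0.83 and -1.18.

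**Figure D4:**
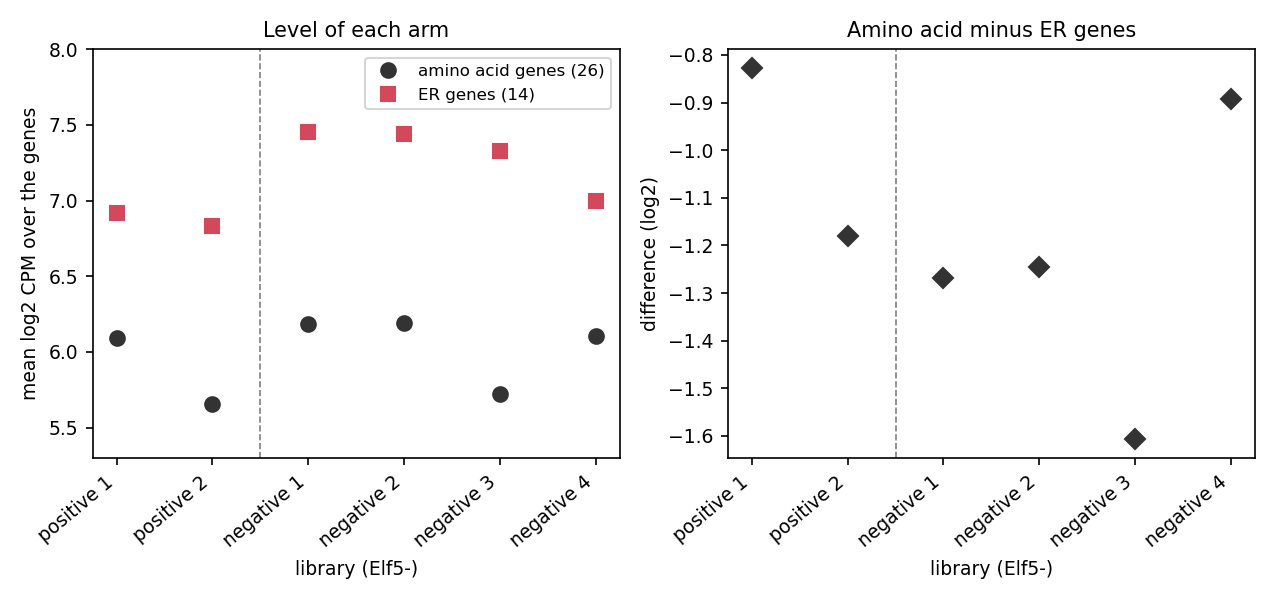
Left, mean log2 CPM (TMM-scaled, prior count 2) over the 26 amino acid genes (circles) and the 14 ER genes (squares) in each library; right, their difference, which does not depend on scaling between libraries. The 2 Elf5-positive libraries lie left of the dashed line, and their ER level is below that of all 4 Elf5-negative libraries, while the differences of the sorts overlap.

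Each title set holds 1 T2 library of either sort, and in both of these pairs 26 of the 40 genes were lower in the Elf5-positive library, while 5 were higher in both. Over all genes tested, 34.2% were lower and 34.8% higher in both pairs. Of the ER genes, 12 of 14 were lower in both. The median log2 ratio of the ER genes, Elf5-positive over Elf5-negative with 0.5 CPM added, was -0.47 in the set A pair and -0.19 in the set B pair. For the amino acid genes, 14 of 26 were lower in both pairs and the medians were -0.16 and -0.36. The medians of the synthesis enzymes and transporters were -0.24 and -0.28 in the set A pair, and -0.65 and -0.36 in the set B pair. The difference between the pairs was not tested.

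Part of the regulators and outputs separated by title number and none by sort, a pattern chosen after the values were seen and given with no test. In 6 of the 9 (Atf4, Atf5, Chac1, Trib3, Sesn2 and Gdf15) all 3 libraries of title set A lay above all 3 of set B, where 8.83% of all genes tested did so. Chac1 stood at 19.3, 17.9 and 20.5 CPM in the set A libraries (Elf5-positive 1, Elf5-negative 1 and 2), against 5.07, 7.87 and 5.96 CPM in the set B libraries. Gdf15 had 42.8, 66.4 and 56.6 CPM in the set A libraries (Elf5-positive 1, Elf5-negative 1 and 2), against 7.59, 19.1 and 25.9 CPM in the set B libraries. Because all 3 libraries of each set separated, the difference in both genes necessarily held within each sort, with 1 Elf5-positive library in each set. The log2 ratios of the means, set A over set B, were 1.61 and 1.66. Sesn2 had 55.8, 39.0 and 51.1 CPM in the set A libraries (Elf5-positive 1, Elf5-negative 1 and 2), against 19.1, 37.8 and 28.1 CPM in the set B libraries, with Elf5-negative libraries 1 and 3 almost level. Ddit3, Ddit4 and Cebpg overlapped between the title sets, with log2 ratios of 0.68, 0.066 and -0.42. Ratios for Trib3, Atf5 and Atf4 were 0.86, 0.54 and 0.51, and Atf4 separated only by 481.1 against 480.7 CPM.

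Among the other members, Asns, Slc38a2, Sdf2l1 and Creld2 were also higher without overlap in the set A libraries, and Pdia4 in the set B libraries, where 8.1% of all genes tested lay that way. None of Phgdh, Psat1, Psph, Shmt2 and Mthfd2 separated by number. The labels give no meaning to the number, and other measures moved with it. Hspa1a and Hspa1b, near-identical heat shock genes of the dissociation list, summed to 9314, 5657 and 7921 CPM in the set A libraries (Elf5-positive 1, Elf5-negative 1 and 2), against 1968, 4438 and 2352 CPM in the set B libraries. The other 12 genes of that list, mostly immediate early genes, summed to 12919, 16338 and 11494 CPM against 11842, 12321 and 11224 CPM in the same order, with overlap, and 2 of the 12 separated by number. The whole list summed to 22233, 21995 and 19415 CPM in set A, against 13810, 16760 and 13576 CPM in set B. Leukocyte markers summed to 204, 448.5 and 207 CPM against 82.5, 123 and 95.1 CPM in the same order. Their part in the pattern was not tested.

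**Figure D5:**
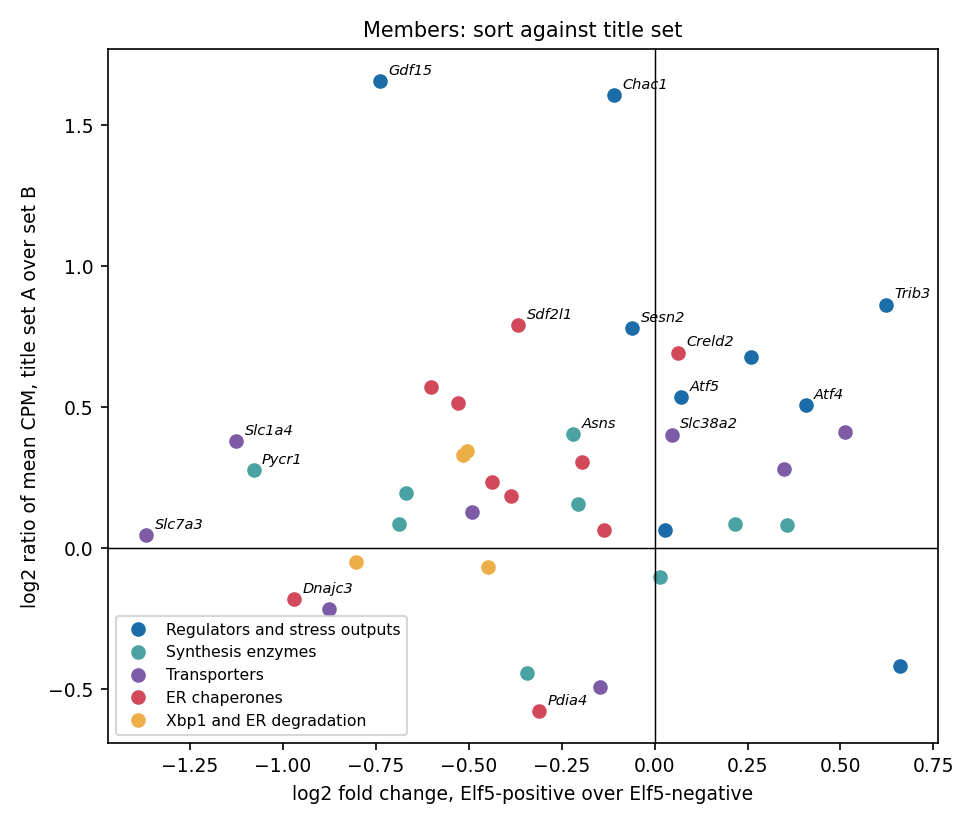
Log2 fold change between the sorts (x axis, Elf5-positive over Elf5-negative, TMM scaling; all 40 genes move below 0 with scaling to epithelial genes) against the log2 ratio of mean CPM of title set A over title set B (y axis) for the 40 genes. Chac1 and Gdf15 lie highest at 1.61 and 1.66, and names mark genes whose libraries do not overlap by number or whose log2 fold change exceeds 0.9 in size.

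Other genes of the pathway come from lists chosen with earlier results known. Of 20 cytosolic tRNA synthetases, many of which Atf4 induces, 0 passed in either direction, 15 lay above 0 and the median log2 fold change was 0.10. With scaling to epithelial genes 18 were called lower, where 8521 of all 20684 genes tested were. Farsb had the smallest p, at 0.54 (SE 0.22, adjusted p = 0.247). Of 20 stress sensors and eIF2 factors 19 were tested and 0 passed, 9 above and 10 below 0. In 7 of the 17 settings other than epithelial scaling 1 or 2 of them were called lower, among these the one without Elf5-negative library 2, and 13 with epithelial scaling. Impact, which restrains the eIF2 kinase Gcn2, was nearest to passing at -2.10 (SE 0.48, adjusted p = 0.0513). Ern1, which encodes Ire1, was at -1.02 (SE 0.31, adjusted p = 0.120).

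Of the further ER folding genes, 16 of 18 lay below 0, with a median of -0.52, where 46.7% of all genes tested lay below 0. With scaling to epithelial genes 18 of 18 were called lower, where 8521 of all 20684 genes tested were. With TMM scaling 2 fell, both disulfide isomerases, where 3.79% of all genes tested were called lower. Pdia5 stood at 7.18 and 1.86 CPM in Elf5-positive libraries 1 and 2, against 34.9, 49.7, 42.3 and 18.1 CPM in Elf5-negative libraries 1 to 4 (log2 fold change -3.01, SE 0.65, adjusted p = 0.0458). Txndc5 was at -1.15 (SE 0.25, adjusted p = 0.0477). With any 1 library left out, between 0 and 1 of the 18 passed. None of 16 translocation genes and none of 15 other degradation genes passed, with medians of -0.27 and -0.13, and Sec11c and Erlec1 had the smallest p (adjusted p = 0.348 and 0.268).

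Of the genes of collagen folding and export 8 of 16 fell, against 3.79% of all genes tested, with a median log2 fold change of -1.51. P4ha3, a collagen prolyl hydroxylase subunit, had 2.38 and 1.10 CPM in Elf5-positive libraries 1 and 2, against 19.2, 25.9, 58.2 and 20.4 CPM in Elf5-negative libraries 1 to 4. No Elf5-positive library came near the Elf5-negative range (log2 fold change -4.15, SE 0.66, adjusted p = 0.0166). P3h1, another prolyl hydroxylase, Fkbp10, a collagen chaperone, and Sec24d, of the coat of large secretory vesicles, were at -3.04, -3.37 and -1.92. Of the 16, 1, 4, 1 and 9 passed without Elf5-negative library 1, 2, 3 or 4. In these fits 249, 556, 338 and 811 of all genes tested were called lower. Without Elf5-negative libraries 1 and 2 together, and in the T2 libraries with no block (edgeR), 0 of the 16 passed. Of all genes tested, 75 and 0 were called lower in these 2 settings. The collagen folding and export genes fell beside the fibroblast markers given above, whose part was not tested.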

How the data were processed

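RNA of 6 sorted libraries was sequenced. The authors deposited a table of 52325 Ensembl genes with estimated counts (expected counts), already whole numbers, made per the submitters' processing notes with Salmon on GRCm38.p5. The version, annotation release and strand setting are not stated, and Salmon divides reads of near-identical genes by model. Rounding changed 0 values. GENCODE M21 (GRCm38) gave symbols for 52220 IDs, exon lengths and exon overlaps.

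Tools were edgeR 4.0.16, DESeq2 1.42.0, limma 3.58.1 and rtracklayer 1.62.0 in R 4.3.3, with Python 3.11.15 and matplotlib 3.10.9. After filterByExpr by group, 20684 genes stayed and were scaled with TMM. The sorts were compared over the whole table with the edgeR quasi-likelihood test, unblocked, and p-values were adjusted after Benjamini-Hochberg with a threshold of 0.05. The standard error is the fold change (log2) over the root of F. The test was tried on simulated counts. Totals of 9106660 to 53694884 counts set the precision.

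The members and all lists were chosen with earlier results of these data known, so lists are described with no test. Described in full were 16 members set by role and those with an unadjusted p below 0.05 and no overlap. From other lists these were genes called (up to 4) or else that of smallest p. Gdf15, Sesn2, Slc7a3 and Ern1 were added after their values were seen. Alternatives were RLE or epithelial scaling, 2 other count filters, robust fitting, DESeq2, limma-voom, a block for the title number, T2 libraries alone, thinning and leaving out each library. Leaving out Elf5-negative libraries 1 and 2 together was added with the data known.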

Additional observations from a re-analysis of the deposited data

How the results depend on the processing

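No member passed in edgeR with RLE factors, other low-count filters, robust dispersions, limma-voom, thinned counts or the T2 libraries without the block, and 5 members passed in at least 1 setting other than epithelial scaling. DESeq2 called 436 genes higher and 1763 lower, among them 3 members lower (2 amino acid, 1 ER). The title number as a block gave 252 genes higher, 1011 lower and 1 member lower (Slc1a4, of the amino acid arm), and the block in the T2 libraries 549 higher, 1368 lower and 3 members lower, all 3 of the amino acid arm (Aldh18a1, Phgdh and Slc1a4). Deviations from the group means correlated at 0.489 and 0.536 in the 2 T2 pairs that share a number. They correlated at 0.156 and -0.026 where the Elf5-negative library of that number is T1. With 2 Elf5-positive libraries, the deviations of 1 are the mirror image of those of the other. These correlations therefore rest on 1 contrast and cannot decide whether the number pairs samples. The labels do not define the number, so the main fit used no block. Whether number and code together mark pairs is not stated, and the block in the T2 libraries covers that case. There 13 of the 40 members were lower and 2 higher with an edgeR p below 0.05 before adjustment. By the same cut 2847 of 19395 genes were lower and 2080 higher. Without the block, 2 members were lower and 0 higher. With no low-count filter 273 genes were higher and 1331 lower. In the T2 libraries with no block edgeR called 0 higher and 0 lower (469 and 1463 at an unadjusted p under 0.05), and without Elf5-negative libraries 1 and 2 it called 0 higher and 75 lower (539 and 1657). Scaling to epithelial genes called 13 genes higher and 8521 lower, 32 members lower (18 amino acid, 14 ER), with medians of -1.5 and -1.82, as it lowers all genes. With 1 library left out, 25 to 133 genes were higher and 197 to 811 lower, 0 to 1 members were lower, all amino acid (0 to 1), and the amino acid median ran from -0.35 (without Elf5-positive library 1) to 0.081 (without Elf5-positive library 2). The ER median ran from -0.54 to -0.35 and the difference of medians from 0.19 to 0.49 there, above 0 in each. In the T2 libraries the medians lay closer than in the main fit (-0.08 amino acid, -0.44 ER). They were -0.21 and -0.37 without the block, and -0.24 and -0.35 with it. In the set B pair the order was the other way, with median log2 ratios of -0.36 (amino acid) and -0.19 (ER). The cause of these changes was not tested.

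Single members changed sign in 53 of 720 values, none of them called with TMM scaling. Epithelial scaling moved the median of all genes to -1.31, and the members that changed sign there were Atf4 (-1.0), Atf5 (-1.39), Ddit3 (-1.27), Ddit4 (-1.34), Cebpg (-0.69), Trib3 (-0.90), Psat1 (-1.14), Mthfd2 (-1.37), Gpt2 (-1.06), Slc7a5 (-0.90), Slc3a2 (-1.06), Slc38a2 (-1.38) and Creld2 (-1.35). With no low-count filter they were Ddit4 (-0.011) and Mthfd2 (-0.025), with thinned counts Ddit4 (-0.0080), in the T2 libraries without the block Atf5 (-0.038), Ddit4 (-0.27) and Mthfd2 (-0.14), with it Atf5 (-0.081), Ddit4 (-0.29) and Mthfd2 (-0.12), and without Elf5-negative libraries 1 and 2 Ddit4 (-0.022), Chac1 (0.81), Sesn2 (0.19), Gdf15 (0.19), Hsp90b1 (0.011) and Sdf2l1 (0.11). With 1 library left out, log2 fold changes crossed 0 for Asns (-0.55 to 0.053), Atf5 (-0.39 to 0.42), Chac1 (-1.37 to 0.56), Creld2 (-0.37 to 0.39), Ddit3 (-0.21 to 0.62), Ddit4 (-0.25 to 0.26), Gdf15 (-2.47 to 0.030), Hsp90b1 (-0.32 to 0.027), Mthfd2 (-0.10 to 0.18), Pdia4 (-0.74 to 0.018), Pdia6 (-0.46 to 0.023), Sesn2 (-1.03 to 0.51), Slc38a2 (-0.31 to 0.33), Slc7a1 (-0.52 to 0.15) and Trib3 (-0.21 to 1.15). Depth limits the low genes most, and Chac1 (58 counts) and Pycr1 (125 counts) had the fewest in Elf5-negative library 4.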
